A study of Drosophila melanogaster with 2 samples.

Results

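A ChIP-seq experiment on the protein disco in fly embryos, collected 0 to 8 h after egg laying, gave 1723 bound regions. Of these, 11 lay in 2 windows that stand for the Hox gene complexes. These 11 were chosen by position alone, as all peaks on chromosome arm 3R of Release 5 with a midpoint in either 400 kb window. The window from 2450001 to 2850000 stands for the Antennapedia complex (ANT-C) with lab, pb, Dfd, Scr and Antp, and it held 3 peaks. The window from 12450001 to 12850000 stands for the bithorax complex (BX-C) with Ubx, abd-A and Abd-B, and it held 8 peaks. Together they made up 0.638% of the list (95% exact binomial interval 0.319 to 1.14%) and 2.62% of the 420 peaks on 3R (1.31 to 4.64%). These intervals cover counting error alone and take each peak as independent of the next. No annotation of Release 5 was used here. The windows are therefore taken to hold these genes as given, and a peak in the ANT-C or BX-C below means one in its window. Where a peak lies relative to a Hox gene, its exons, introns or promoter cannot be stated. No genome of that release was used either, and no peak sequence is printed.

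The study has 2 samples, the disco ChIP and the input chromatin, which the series design names as the control. The ChIP title names replicates 1 and 2 together, and 1 peak list stands for both, so no spread between replicates could be computed and no difference below has a replicate check. The embryos were untreated. The growth protocol names the iso1 strain (y; bw cn sp) or transgenic flies without saying which gave this chromatin, and the antibody is named KW3-disco-D2. The chromatin came from whole embryos over all of these hours, so a peak does not say in which cells or at which time disco was bound. The read depth is unknown. Every score is the value deposited by the authors from their peak caller. The header does not name its scale, and it may measure significance, not the amount of binding, so scores are ranked and subtracted but never divided.

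Hox genes encode homeodomain transcription factors that give the segments along the body their identity, and in each complex the genes lie roughly in the order of the segments they pattern. In the ANT-C, lab acts in part of the head and in the midgut, pb in the mouthparts and Dfd in the mandibular and maxillary segments. Scr acts in the labial and first thoracic segments, and Antp in the thorax. In the BX-C, Ubx acts in the posterior thorax and first abdominal segment, abd-A in the abdomen behind it and Abd-B in the most posterior segments. The zinc finger protein disco is known from fly genetics to act together with its relative disco-r and with the Hox proteins Dfd and Scr in the gnathal segments. The comparisons below ask whether the windows that stand for the complexes carried disco peaks, and how these compare with the rest of 3R. A gene table of Release 6, used only for names and neighbours, lists the 8 genes on 3R in the order lab, pb, Dfd, Scr, Antp, Ubx, abd-A, Abd-B. From lab to Antp it lists 19 coding genes, of which 14 are not among the 5 Hox genes named here, including the early embryonic regulators zen, bcd and ftz and a run of cuticle genes. From Ubx to Abd-B it lists 6 coding genes, of which 3 are not Hox genes.

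In the ANT-C the peaks were few and wide. Peak 1 lay at 3R 2476506 to 2478522, was 2017 bp wide and scored 77.7. Peak 2 lay at 2488268 to 2490693, was 2426 bp wide and scored 68.14. Peak 3 lay at 2689238 to 2692040, was 2803 bp wide and scored 99.41. The widest of the 3 was thus also the highest-scoring, while the narrowest had the middle score. Peaks 1 and 2 formed a pair within 14.2 kb near the low end of the window. Peak 3 stood alone beyond the middle of the window, and in the remaining sequence no peak was called.

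**Figure D1:**
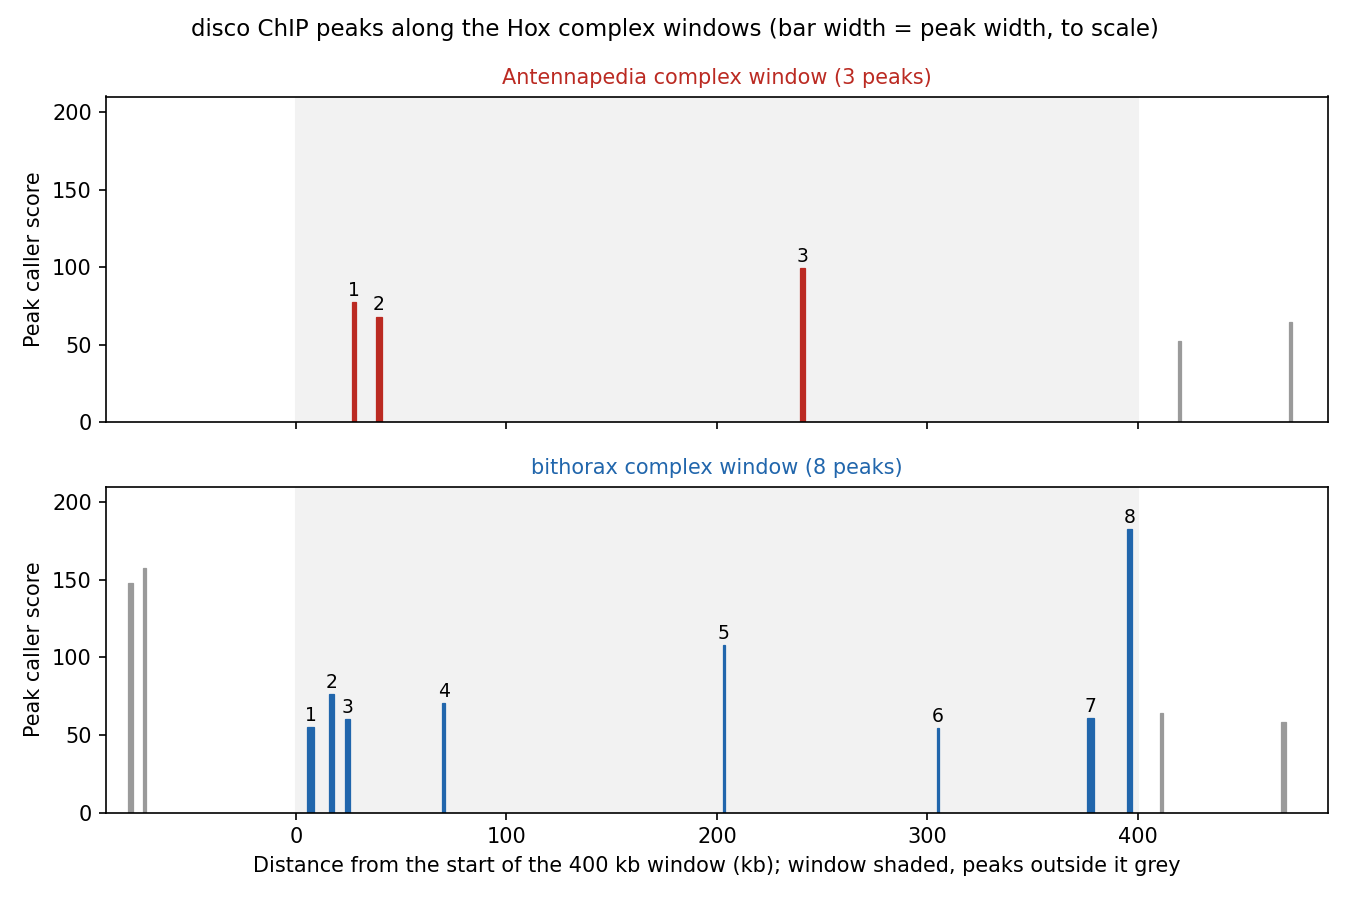
Peaks of the disco ChIP along the ANT-C window (top) and the BX-C window (bottom). The horizontal axis gives the distance from the start of the window in kb, the height of a bar is the peak caller's score and its width is the peak's width to scale. Shading marks the windows, numbers count the member peaks, and grey bars are peaks outside. The ANT-C holds 3 peaks, and of the 8 BX-C peaks 5 lie within 50 kb of an edge of the window.

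In the BX-C the 8 peaks were spread over 392 kb, and most lay toward the ends of the window. Peaks 1 to 3 formed a group of 20.4 kb at its low end. Peak 1 lay at 12455243 to 12458678, was 3436 bp wide and scored 54.84. Peak 2 lay at 12465893 to 12468092, was 2200 bp wide and scored 76.33. Peak 3 lay at 12473239 to 12475612, was 2374 bp wide and scored 60.42. All 3 were wide for the list, while their scores lay on both sides of its median of 68.69.

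The middle of the BX-C held 3 separate and narrower peaks. Peak 4 lay at 12519609 to 12520927, was 1319 bp wide and scored 70.32. Peak 5 lay at 12652749 to 12653839, was 1091 bp wide and scored 108.07. Peak 6 lay at 12754555 to 12755538, was 984 bp wide and scored 54.19. It was both the narrowest and the lowest-scoring of the 11, and the lowest score of the whole list was 50.09. Peak 5 scored well above both of its neighbours, although the widths of all 3 lay between 984 and 1319 bp.

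At the high end of the BX-C window lay the neighbouring members that differed most in score. Peak 7, at 12825637 to 12829054, was 3418 bp wide and scored 61.12. Peak 8, at 12844946 to 12847027, was 2082 bp wide and scored 182.56, which put it at rank 27 of the whole list and at rank 8 on 3R. It was the highest-scoring of the 11. Its midpoint lay 4.01 kb inside the edge of the window, so its place among the members rests on where that edge was set. Without peak 8 the highest score in either complex would be the 108.07 of BX-C peak 5, at rank 251 of the list.

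Peaks just beyond the windows were not counted. Before the ANT-C the nearest was at 2203998 to 2208232, with its midpoint 244 kb from the edge, a width of 4235 bp and a score of 131.02. After it the nearest was at 2868962 to 2870340, 19.7 kb from the edge, 1379 bp wide with a score of 52.48. Before the BX-C a pair of high-scoring peaks lay 78.6 and 72.0 kb from the edge, with scores of 147.93 and 157.78. After it a peak at 12860473 to 12861805, 11.1 kb from the edge, was 1333 bp wide and scored 64.45. Windows widened by 50 kb on each side would therefore hold 4 and 9 peaks in place of 3 and 8. The ANT-C is bordered on its low side by a stretch with no peak, while the BX-C has called peaks within 72.0 kb on its low side and 11.1 kb on its high side.

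The number of peaks was compared with the 67 other full windows of 400 kb on 3R, laid on the grid that contains both complexes. Those windows held a median of 6 peaks, with quartiles of 4 and 8 and extremes of 0 and 16. The 3 peaks of the ANT-C placed it low, since 7 other windows (10.4%) had fewer, 8 had the same number and 52 had more. The 8 peaks of the BX-C placed it above the median, since 45 windows (67.2%) had fewer, 9 had the same number and 13 had more. Neither complex was at an extreme of the arm. The 3 other windows with the most peaks were 1250001 to 1650000 with 16, 20050001 to 20450000 with 12 and 11650001 to 12050000 with 11, the first by position of 4 windows with that number. Between the complexes, the ANT-C had 3 of the 11 peaks (27.3%), with a 95% exact binomial interval of 6.02 to 61.0% that includes an equal split.

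**Figure D2:**
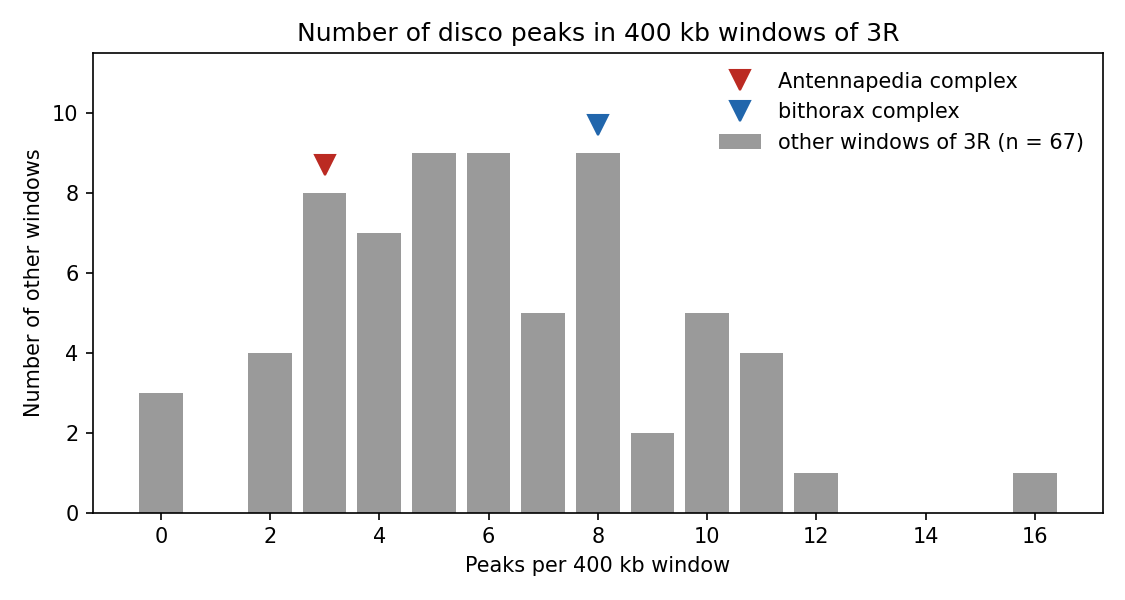
Number of disco peaks per 400 kb window of 3R (horizontal axis) against the number of other windows with that count (vertical axis, grey bars, 67 windows). Triangles mark the ANT-C at 3 peaks and the BX-C at 8 peaks, the ANT-C below and the BX-C above the median of 6.

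The windows next to each complex were set beside it. The window before the ANT-C held 3 peaks and the one after it held 8. The window before the BX-C held 11 peaks and the one after it held 4. By number of peaks the ANT-C thus matched the window on its low side, and the BX-C lay between its neighbours. The match did not extend to width: the median was 1308 bp in that low-side window and 2426 bp in the ANT-C.

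Counted in bases, the ANT-C stood somewhat higher than in peaks, and the BX-C stood about the same. Peaks covered 7246 bp of the ANT-C window, and 21 of the 67 other windows (31.3%) had less covered. Peaks covered 16904 bp of the BX-C window, and 55 of the other windows (82.1%) had less. The median of the other windows was 10118 bp. More peaks than in the ANT-C were found in 52 other windows, and more covered bases in 46. For the BX-C these counts were 13 and 12. No window tied with it in bases while 9 tied in peaks, so its higher share with less covered is mostly an effect of ties.

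The median width was 2426 bp in the ANT-C and 2141 bp in the BX-C, against 1540 bp for the 409 other peaks of 3R (95% order-statistic interval 1443 to 1623 bp). Over both complexes the median was 2200 bp with an interval of 1091 to 3418 bp (coverage 98.8%), which contains the median of the rest of the arm. The interval of the BX-C alone (coverage 99.2%) runs over all 8 of its peaks, 984 to 3436 bp. In the ANT-C, 3 peaks are too few for an interval. With few peaks the coverage cannot be set closer to 95%, so these intervals are wider than 95% ones. A width above the median of the list, which 51.2% of the peaks on 3R had, was found for 3 of 3 ANT-C peaks and 5 of 8 BX-C peaks. A width above its upper quartile, which 27.9% of the peaks on 3R had, was found for 2 of 3 ANT-C peaks and 4 of 8 BX-C peaks. A width above 3000 bp, which 10.5% of the peaks on 3R had, was found for 0 of 3 ANT-C peaks and 2 of 8 BX-C peaks. Over both complexes these counts were 8, 6 and 2 of 11 peaks, so the excess over the shares of the arm amounts to a few peaks.

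As a window, the ANT-C had a median width above that of 62 of the 64 other windows with a peak, and the BX-C one above that of 58. The BX-C value rests on peaks near the edges of its window: in the central 300 kb its median width was 1091 bp over 3 peaks, below the 1540 bp of the rest of 3R. In the central 300 kb of the ANT-C the single peak was 2803 bp wide. The narrowest ANT-C peak, at 2017 bp, was also wide. In none of the 60 other windows of 3R with at least 3 peaks were all peaks at least that wide. Windows with more peaks are more likely to include a narrow one, so the 8 other windows with exactly 3 peaks are the closer match: their narrowest peaks ranged from 791 to 1787 bp. This measure was chosen after the widths had been seen, and it rests on 3 peaks. Runs of wide peaks occur elsewhere when the windows are ignored: of 418 runs of 3 neighbouring peaks on 3R, 17 had no peak under 2017 bp, the ANT-C run included.

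**Figure D3:**
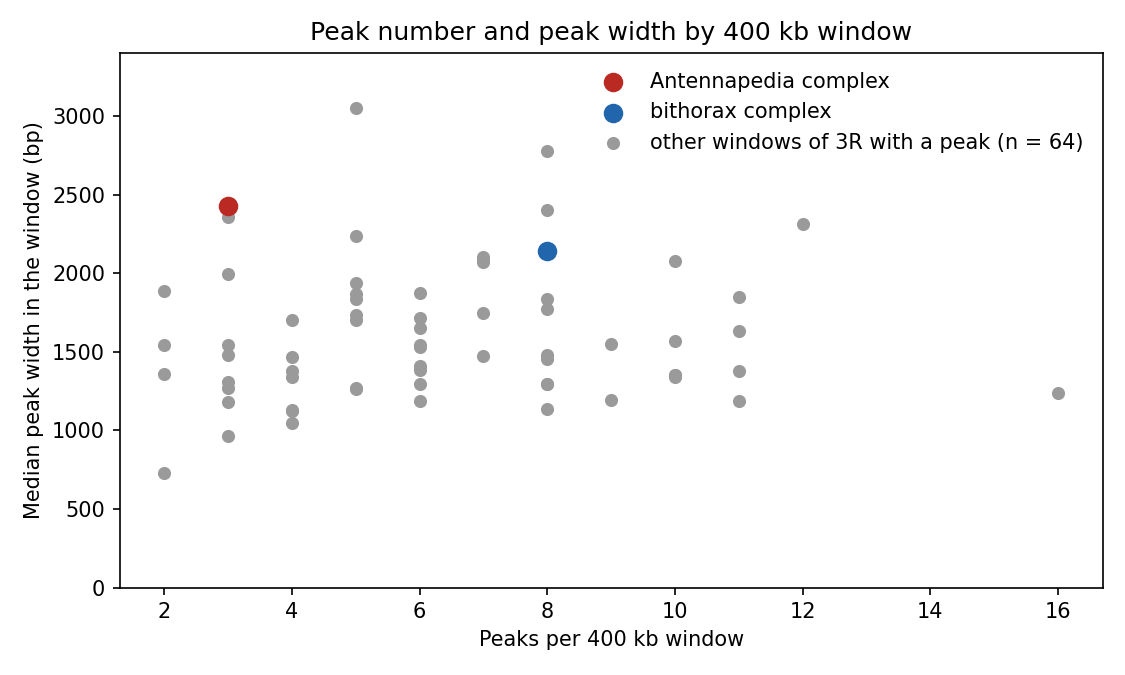
Peaks per 400 kb window of 3R (horizontal axis) against the median peak width in that window in bp (vertical axis). The ANT-C (red, 3 peaks, 2426 bp) and the BX-C (blue, 8 peaks, 2141 bp) lie in the upper part of the 64 other windows with a peak (grey), whose median is 1504 bp.

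Scores in the complexes covered the range common on the arm. The median was 77.7 in the ANT-C and 65.72 in the BX-C, against 68.69 for the other peaks of 3R (interval 66.74 to 72.12). The ANT-C median was thus 9.01 above that of the rest of the arm and the BX-C median differed from it by -2.97. The members themselves ranged from 54.19 to 182.56, and with so few peaks neither difference could be tested. A score above the median of the list, which 49.8% of the peaks on 3R had, was found for 2 of 3 ANT-C peaks and 4 of 8 BX-C peaks. A score above its upper quartile, which 28.3% of the peaks on 3R had, was found for 1 of 3 ANT-C peaks and 2 of 8 BX-C peaks. A score above 100, which 22.4% of the peaks on 3R had, was found for 0 of 3 ANT-C peaks and 2 of 8 BX-C peaks. Over both complexes these counts were 6, 3 and 2 of 11 peaks, close to the shares of the arm. By its highest score, the BX-C window stood above 57 of the 64 other windows with a peak, and that rank rests on peak 8 alone. The highest score of the ANT-C window, 99.41, stood above 14 of the 64.

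Several BX-C peaks had a score far from that of peaks of like width. The widest of them, 1 and 7, were at rank 111 and 114 of the list by width but at rank 1438 and 1136 by score. Of the 84 other peaks of the list with a width within 10% of peak 1, 4 scored lower than its 54.84, and their median score was 90.54. Of the 83 within 10% of peak 7, 13 scored lower than its 61.12, and their median was 90. Peak 5 showed the opposite: at 1091 bp it scored above 198 of the 212 peaks of like width, whose median was 65.34. Peak 8 scored above 243 of the 246 peaks of like width. The other BX-C peaks were less far from theirs: peaks 2 and 4 scored above 46.1% and 58.3% of their like-width peaks. Peaks 3 and 6 scored above 18.6% and 20.5%, close to the 15.7% of peak 7. In the ANT-C, peaks 1 and 3 scored above the median of their like-width peaks (76.33 and 77.47) and peak 2 below it (79.95). BX-C peaks 1, 5, 7 and 8 were singled out after their values had been seen, and width and score come from the same calls.

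**Figure D4:**
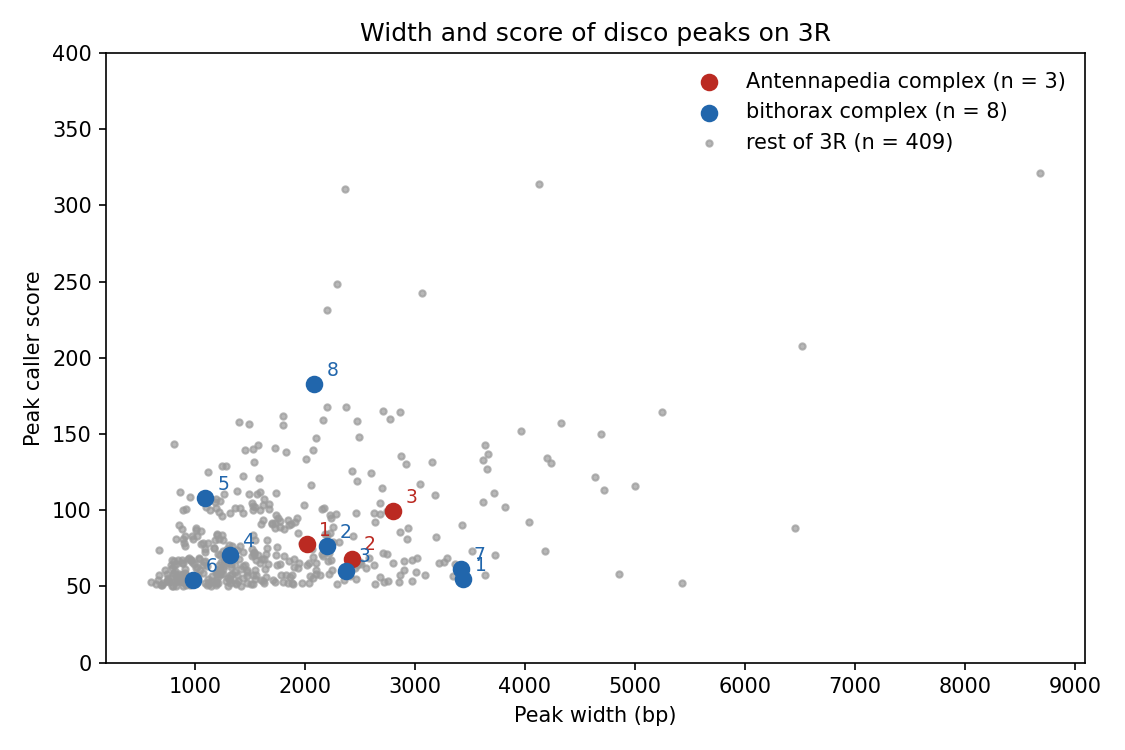
Peak width in bp (horizontal axis) against the peak caller's score (vertical axis) for the 3 ANT-C peaks (red), the 8 BX-C peaks (blue) and the 409 other peaks of 3R (grey), each a point. Numbers count the members along each window. BX-C peaks 1 and 7 are wide with scores of 54.84 and 61.12, while BX-C peak 5 is narrow with a score of 108.07 and BX-C peak 8 reaches 182.56.

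Stretches without a peak were compared by length. As 400 kb windows the complexes were not unusual: the longest distance between midpoints or from a midpoint to the edge was 201 kb in the ANT-C and 133 kb in the BX-C, against a median of 166 kb in the other 67 windows. A longer one was found in 25 other windows for the ANT-C, 4 of them among the 8 with the same number of peaks, and in 48 for the BX-C. Within the ANT-C no peak was called for 199 kb between peaks 2 and 3, which ranked 37 of the 419 stretches between neighbouring peaks on 3R by length. The stretch from peak 3 to the first peak past the window was 177 kb long, at rank 43. The stretch that ends at peak 1 was 268 kb long, at rank 15, and most of it lies before the window. Only the 9.75 kb between peaks 1 and 2 was shorter than the median stretch of the arm, 29.1 kb. With 179 kb to the nearest other midpoint, ANT-C peak 3 ranked 4 of the 420 peaks of 3R by isolation.

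Within the BX-C the longest stretches were 132 kb between peaks 4 and 5, at rank 62, and 101 kb between peaks 5 and 6, at rank 81. Peak 5 lay 102 kb from the nearest other midpoint, which ranked 18 on the arm. The stretches inside the low-end group were 7.21 and 5.15 kb long, and the one between peaks 7 and 8 was 15.9 kb. The BX-C thus combined a close group at one end, a pair at the other and isolated peaks between them.

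**Figure D5:**
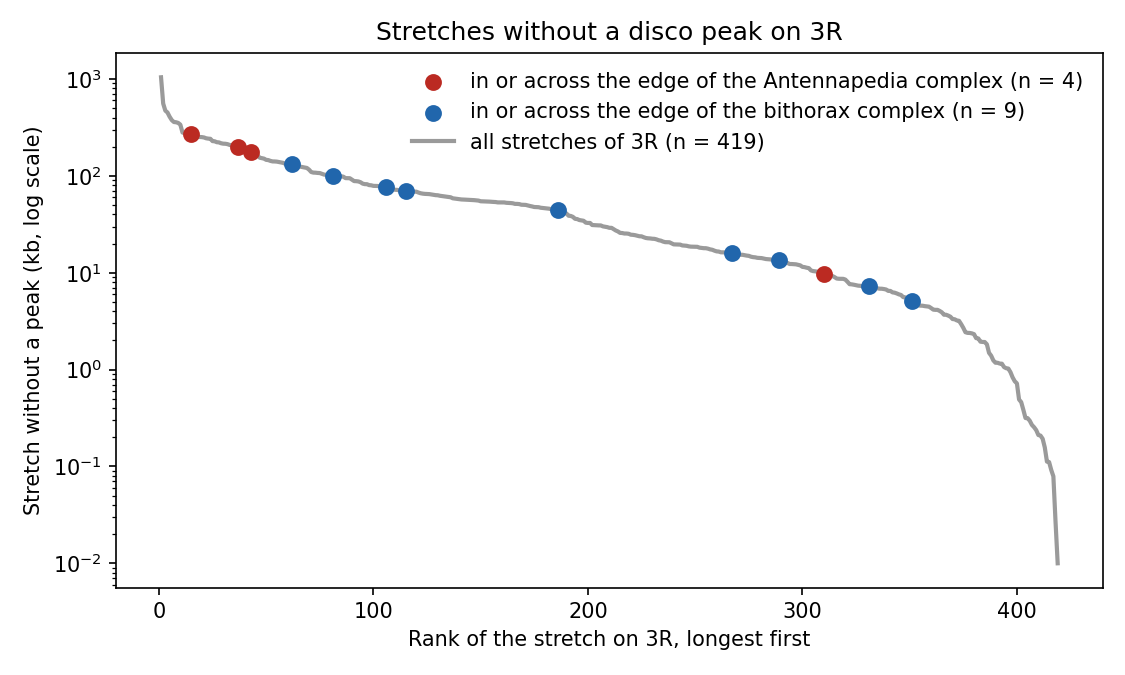
Length of the stretches without a disco peak between neighbouring peaks of 3R in kb (vertical axis, log scale) against their rank, longest first (horizontal axis). The grey line is all 419 stretches, red points are the 4 in or across the edge of the ANT-C window and blue points the 9 of the BX-C window. Of the red points 3 are among the 43 longest stretches, while the blue points run from rank 62 to rank 351.

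By the distance to the nearest other midpoint, the medians of the complexes lay on both sides of that of the rest of 3R. The median distance was 12.0 kb in the ANT-C and 16.9 kb in the BX-C, against 13.4 kb for the rest of 3R. The ANT-C median is the single distance between peaks 1 and 2, counted for each of them, while peak 3 lay 179 kb from its nearest neighbour. Another peak midpoint within 10 kb was found for 0 of 3 ANT-C peaks (95% exact interval up to 70.8%) and 2 of 8 BX-C peaks (25%, 3.19 to 65.1%), against 42.4% of all peaks on 3R. The intervals of both complexes contain that share, but with 3 peaks the ANT-C interval would do so at any count. The 2 BX-C peaks, 2 and 3, are each other's neighbour and so are not independent. The intervals therefore cannot show that the complexes match the arm. BX-C peak 1, at 10.03 kb from its neighbour, fell just past the limit. Within 50 kb the counts were 2 of 3 and 6 of 8, against 82.6% of the other peaks of 3R. In bins of 50 kb, peaks lay in 2 of the 8 bins of the ANT-C and in 5 of the 8 bins of the BX-C, against a median of 4 in the other windows.

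The outer 100 kb of each window (50 kb at each end) held 2 of the 3 ANT-C peaks and 5 of the 8 BX-C peaks, against 24.6% of the 406 peaks in the other windows. The central 300 kb held 1 ANT-C peak and 3 BX-C peaks, against a median of 4 in the other windows. By that central count, 5 other windows had fewer peaks than the ANT-C and 58 had more, and 18 had fewer than the BX-C and 38 had more. The position of the BX-C above the median of the windows thus rests on peaks within 50 kb of the window's limits.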

How the data were processed

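ChIP-seq was done on chromatin of 0 to 8 h embryos, fixed in 1.8% formaldehyde for 15 minutes per the labels' protocols. Reads were aligned with Bowtie to BDGP5 (Release 5), per the submitters' processing notes, and MACS called the peaks, per the file headers. The sources used here do not give the versions, the calling threshold or how the input was used. The deposited list gives each peak's start, end and 1 score, none of them below 50.09. Printed starts are 1 higher than the deposited ones, which count from 0. No input table was analysed here.

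A peak lay in a window when its midpoint did. Other windows were the full 400 kb windows of 3R between its first and last peak. Windows and peaks are not replicates, so ranks, counts and medians are descriptions without a test. Intervals are exact binomial, or order-statistic intervals for medians. The code recovered all planted window counts in 20 of 20 simulated sets. Python 3.11.15, numpy 2.4.6, pandas 2.3.3 and scipy 1.17.1 were used. All members were named. The windows, gene lists and comparisons were chosen with earlier results of these data known. Alternatives were stricter scores, merged peaks, other windows, other limits and other neighbour distances.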

Additional observations from a re-analysis of the deposited data

How the results depend on the processing

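Under 11 alternatives 94 values were recomputed, of which 24 could not move because only the other windows changed. Of the remaining 70, 14 counts and shares moved by over 1.5 times (counts) or out of the 95% Wilson interval (shares of windows). Medians were held against the range of the members. Under stricter scores and in the central 300 kb, the median of the remaining members cannot leave that range, so those settings could not fail. All medians met this loose limit. The BX-C median width was nonetheless 1091 bp in the central 300 kb, below the 1540 bp of the rest of 3R. It was 1700.5 and 1586.5 bp in the top 50% and 25% by score, whose BX-C median scores were 92.2 and 145. The 1540 bp covers peaks of all scores, so it is not a like reference for these 2 widths. With the 50% of peaks that score highest, the BX-C held 4 peaks, with 0 that had a neighbour within 10 kb, and 20.9% of the other windows had fewer peaks than the ANT-C. With the top 25% the ANT-C held 1 peak and the BX-C 2, again 0 with a near neighbour, and 52.2% of windows had fewer than the BX-C. In the central 300 kb the ANT-C held 1 peak and the BX-C 3, with 0 near neighbours, and 26.9% of windows had fewer than the BX-C. A neighbour limit of 5 kb gave 0 BX-C peaks, and one of 50 kb gave 2 in the ANT-C and 6 in the BX-C. Stricter scores and the central 300 kb can only keep or lower the counts of members and near neighbours, and the limit sets which neighbours count. Why the shares of windows moved was not tested. Windows of 2L, 3L, 3R and X gave shares of 13.9% for the ANT-C and 74.0% for the BX-C. Widening the windows by 50 kb was chosen after seeing the data. No paired analysis was possible because the replicates share a single list, and none could be left out. Without read counts, an empty stretch and a thinly covered one look alike.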
